A study of Mus musculus with 2 samples.

Results

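Lymph nodes are built around a stroma that draws lymphocytes in and holds them in zones. Reticular stromal cells and lymphatic vessels make the chemokines of the T cell zone, Ccl19 and Ccl21, follicular stroma makes Cxcl13 for the B cell zone, and the high endothelial venules display sulphated mucins on which lymphocytes roll. These genes, with a macrophage lectin of lymph node sinuses and several receptor genes of T and B cells, were followed here in a lower leg muscle. Lymph nodes lie in fat near the muscles of the leg, for example behind the knee.

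The group held 10 genes, Ccl21a, Ccl19, Cxcl13, Glycam1, Madcam1, Cd209b, Cd3d, Cd3g, Cd8b1 and Cd79b, of 16593 named genes on the array, and was represented by 14 probes. Members were all probes annotated to those symbols. Their names were picked with the difference between these 2 arrays already known, so that difference is given as a description and was not tested.

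The study used Illumina bead arrays to measure gene expression in the tibialis anterior, a shin muscle, of C57/BL6 mice, under a title on sex hormones and the reserve of muscle stem cells at puberty. The vehicle group was injected with vehicle at 10 days of age. The DHT group was injected at the same age with DHT, taken to mean the androgen dihydrotestosterone, and in both groups muscle was taken 24 h after an injection under the skin. Each group had 1 array and no replicates, and the labels used here give neither the sex of the animals nor how many animals an array represents. The mice carry no transgene or deletion in the labels.

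The arrays held 25697 probes, with median signals of 177 after vehicle and 168 after DHT. A probe was taken as detected when its deposited detection p, which compares it with the background of its own array, was under 0.01. Detected probes began at a signal of 190 after vehicle and 180 after DHT. The labelled tissue matched its defining genes: all 15 skeletal muscle genes of a marker list were detected on both arrays, and their median log2 difference, DHT minus vehicle, was 0.03. Signals of the muscle actin Acta1 were 66504 and 65863, near the top of the scale, where differences are compressed. Several others of the list stood there too, among them Ckm, Mylpf and Tnni2, so this median says little about differences in muscle. Further from the top, Mb and Pygm were at least 1.5-fold higher corrected, with log2 differences of 0.75 and 0.68. By the brightest detected probe no gene of the list was 1.5-fold lower, and Myh1 had a log2 difference of -0.47. The dimmer Myh1 probe, with signals of 1522 and 839, was more than 1.5-fold lower, at -0.69 corrected and -0.61 uncorrected. Actn3 had 0.10 at its brightest probe, near the top, and 0.55 and 0.97 corrected at its dimmer probes.

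The promoters of 3 members are shown because these genes stand at the extremes of the group: Glycam1 had the largest difference, Cxcl13 was the chemokine member with the largest difference, and Madcam1 was detected on neither array. Each runs 5′ to 3′ in the direction of the gene, from 250 bases before to 50 bases after the start of the RefSeq gene, build GRCm38.p6, with motif matches in capitals. Glycam1 lies at chr15:103565032-103565331 on the minus strand, Cxcl13 at chr5:95956689-95956988 on the plus strand and Madcam1 at chr10:79664309-79664608 on the plus strand.
Glycam1: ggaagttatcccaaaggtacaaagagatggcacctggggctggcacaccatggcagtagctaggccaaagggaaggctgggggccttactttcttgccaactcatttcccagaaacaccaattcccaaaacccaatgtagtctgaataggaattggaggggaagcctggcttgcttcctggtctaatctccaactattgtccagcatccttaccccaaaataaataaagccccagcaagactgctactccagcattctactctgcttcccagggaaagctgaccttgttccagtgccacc
Cxcl13: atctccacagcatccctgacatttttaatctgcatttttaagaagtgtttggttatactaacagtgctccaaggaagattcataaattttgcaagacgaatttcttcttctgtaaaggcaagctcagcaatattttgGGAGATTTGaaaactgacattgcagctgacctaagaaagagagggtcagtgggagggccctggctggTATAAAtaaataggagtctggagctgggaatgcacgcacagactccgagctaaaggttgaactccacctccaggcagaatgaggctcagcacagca
Madcam1: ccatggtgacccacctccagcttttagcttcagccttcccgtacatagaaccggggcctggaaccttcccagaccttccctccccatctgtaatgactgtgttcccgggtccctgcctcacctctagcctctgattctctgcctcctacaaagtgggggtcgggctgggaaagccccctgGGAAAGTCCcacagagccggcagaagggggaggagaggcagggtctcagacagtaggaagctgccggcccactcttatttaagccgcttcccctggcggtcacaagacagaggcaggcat

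The motifs were searched on both strands: the TATA box, TATAAA, and short cores of the elements bound by NF-kB factors, which act downstream of the lymphotoxin beta receptor in lymphoid stroma. The core GGAGATTTG, of the alternative NF-kB pathway, began 113 bases before the start of Cxcl13, and TATAAA began 46 bases before it. The core GGACTTTCC, of the classical pathway, lay on the opposite strand of Madcam1, 70 bases before the start. Of all 32851 promoter windows of this length, 13.6% held TATAAA, 0.253% held GGAGATTTG and 0.344% held GGACTTTCC, and each was held by 1 of the 8 members with a window in the RefSeq table. The motifs were chosen with the sequences in view, and a match describes letters, not binding. None of these 3 letter strings was in the Glycam1 window.

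Of the 10 members, 9 were detected on at least 1 array, 7 of them on the DHT array alone and 2, Ccl21a and Cd79b, on both. Among all 8815 genes detected on at least 1 array, 3.77% were detected on the DHT array alone. With background correction 8 members were higher after DHT by 1.5-fold or more, where 13.4% of all genes were, and 0 were at least 1.5-fold lower, where 15.8% of all genes were. Without background correction the count was 7, where 6.75% of all genes were at least 1.5-fold higher. The members were chosen on this contrast, so nothing is read from those shares. The median log2 difference of the 9 was 2.12 corrected and 0.80 uncorrected, where the medians over all genes were -0.01 and 0.00.

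**Figure D1:**
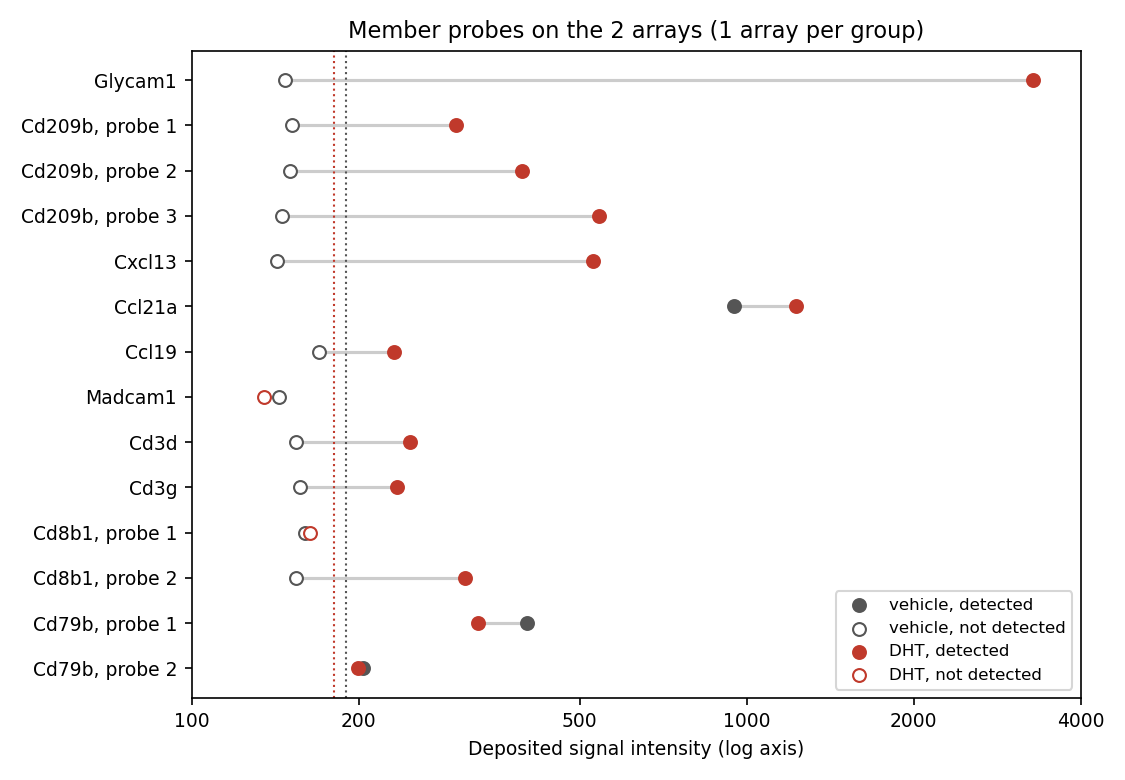
Deposited signal intensity (log axis) of the 14 member probes, 1 per line, on the vehicle array (grey) and the DHT array (red); filled circles were detected, open circles were not, and the dotted lines mark the lowest detected signal of each array, 190 and 180. The Glycam1 probe stands at 147 and 3277, while the vehicle circles of 11 probes lie below the detected range.

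The 3 chemokines of lymphoid stroma differed in size of difference and in baseline. Ccl21a, a ligand of the receptor Ccr7 that draws T cells and dendritic cells to lymphatic vessels and T cell zones, had a signal of 948 after vehicle and 1226 after DHT. It was the only chemokine member detected in the vehicle muscle, and after DHT it was 1.64-fold higher with background correction and 1.54-fold uncorrected. Probes named for its near-identical copies Ccl21b and Ccl21c, named here for that reason, had signals of 766 and 703 after vehicle and 964 and 865 after DHT, and such probes can bind transcripts of any copy. Ccl19, the other ligand of Ccr7, had signals of 169 and 231, with detection p of 0.056 and 0.0013. It was at least 2.12-fold higher by its bound on the corrected scale. Its uncorrected ratio was 1.48-fold and its uncorrected bound 1.33-fold, both under the 1.5-fold line.

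Each value written as "at least" sets the DHT level against the lowest detected level of the vehicle array, or the probe's own where that is higher. Such a bound holds on the corrected scale alone, because subtracting background widens differences of dim probes. The same bound was therefore also computed without background correction. Counts of genes at least 1.5-fold higher or lower, members included, use the plain differences, also for genes that have only a bound. Some of these bounds lie under 1.5-fold.

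Cxcl13, which guides B cells into follicles through Cxcr5, had signals of 143 after vehicle and 529 after DHT. Its detection p was 0.586 on the vehicle array, so it was not above background there. It was at least 8.25-fold higher corrected, with a bound of 3.16-fold and a plain ratio of 4.11-fold uncorrected. Ccl19 and Ccl21a lie on chromosome 4 on the same strand, with start sites 17626 bases apart in GRCm38.p6, and their uncorrected log2 differences were 0.56 and 0.63.

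The genes of high endothelial venules gave the largest member and the only undetected one. Glycam1 encodes a sulphated mucin that carries sugars for L-selectin, and is also made by mammary epithelium. Its signal was 147 after vehicle, with a detection p of 0.436, and 3277 after DHT. It was at least 62.6-fold higher corrected, with a bound of 19.4-fold and a plain ratio of 24.4-fold uncorrected. It had the largest positive difference of all 8815 genes, and of 12694 named probes not detected on the vehicle array it was the brightest on the DHT array. Madcam1, the ligand on venules and marginal stroma for the gut-homing integrin, had signals of 144 and 135 with detection p of 0.551 and 0.713. Its log2 difference, -0.08 corrected and -0.05 uncorrected, is therefore between background values and was left out of the main counts.

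Cd209b, also called SIGNR1, is a sugar-binding lectin of macrophages in lymph node sinuses and the splenic marginal zone, and was read by 3 probes. Their vehicle signals were 152, 150 and 146, none detected. Their DHT signals were 299, 393 and 542, all detected, so the 3 probes moved the same way with a spread in size. The corrected log2 differences ran from 2.68 to 4.07, and the bounds from 3.50-fold to 8.52-fold corrected and from 1.75-fold to 3.24-fold uncorrected. The probes share the same RNA on each array and are no replicates of the condition.

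The T cell members were higher after DHT at 1 probe each and all dim. Cd3d and Cd3g encode the delta and gamma chains of the CD3 complex, which carries the signal of the T cell receptor. Cd3d had signals of 154 and 247, and was at least 2.46-fold higher corrected, with an uncorrected ratio of 1.74-fold and an uncorrected bound of 1.44-fold. Cd3g had signals of 156 and 235, and was at least 2.19-fold higher corrected, with an uncorrected ratio of 1.61-fold and an uncorrected bound of 1.35-fold. The 2 genes stand back to back on chromosome 9, on opposite strands, with start sites 1355 bases apart.

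Cd8b1, the beta chain of the CD8 coreceptor of cytotoxic T cells, had 2 probes that disagreed. ILMN_2741169 had signals of 154 and 311 and was at least 3.75-fold higher corrected, with an uncorrected bound of 1.82-fold. ILMN_2664929 had signals of 160 and 163 and was detected on neither array. The difference of Cd8b1 therefore rests on 1 probe.

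Cd79b, the Ig-beta chain that B cells need for signalling by their antigen receptor, did not share the pattern. Its brighter probe had signals of 402 after vehicle and 327 after DHT, with a corrected log2 difference of -0.13. Its dimmer probe had signals of 203 and 199, with a corrected log2 difference of 0.26. Both probes were detected on both arrays, and their 2 differences lay on opposite sides of 0 and under 1.5-fold.

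**Figure D2:**
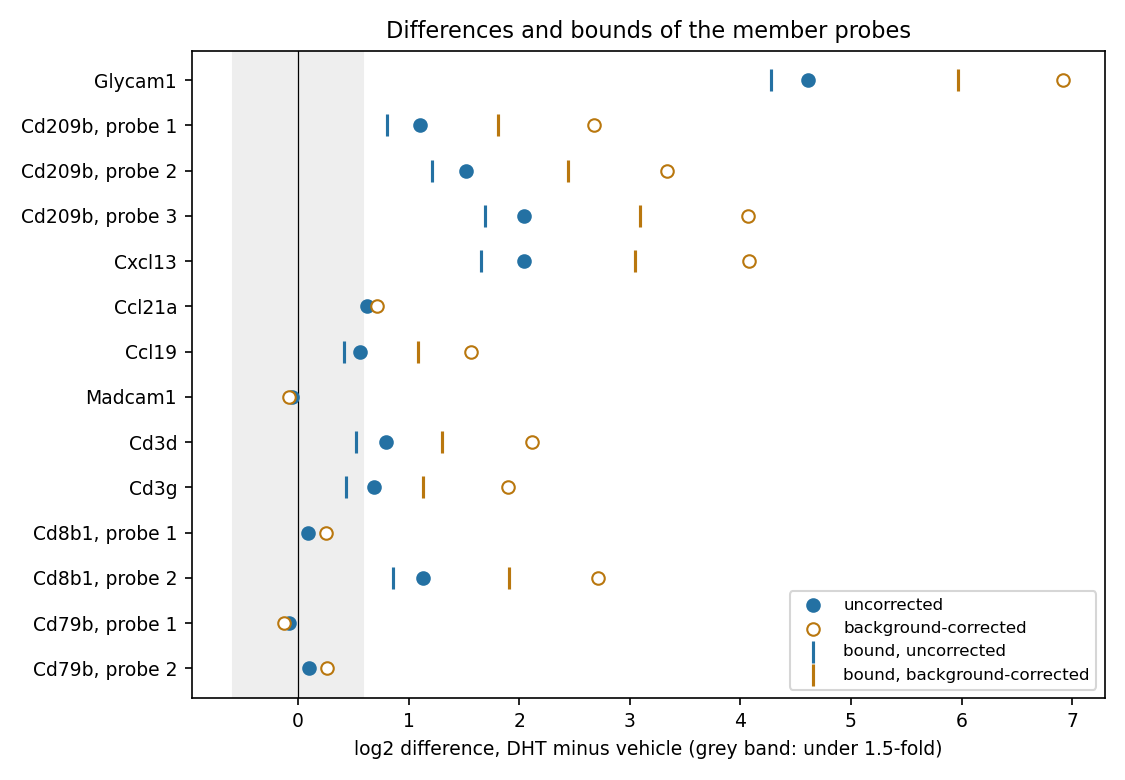
Log2 difference, DHT minus vehicle, of each member probe without background correction (blue) and with it (open orange); vertical ticks are the bounds of probes detected on the DHT array alone, and the grey band marks differences under 1.5-fold. The corrected value of Glycam1 is 6.92 and its uncorrected value 4.61. Madcam1, both Cd79b probes and the Cd8b1 probe detected on neither array lie inside the band on both scales. Ccl19 lies inside it by its uncorrected value alone.

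In order of uncorrected log2 difference the detected members were Glycam1 (4.61), Cd209b (2.05), Cxcl13 (2.04), Cd8b1 (1.13), Cd3d (0.80), Cd3g (0.69), Ccl21a (0.63), Ccl19 (0.56) and Cd79b (-0.08). Over 11395 probes with neither detection p under 0.05, the SD of the uncorrected difference was 0.11. Cd209b and Cxcl13 lay closer together than that SD, as did each pair of neighbours from Cd3d to Ccl19. That SD is of single differences of undetected probes. It gives no error for a step between 2 detected members and does not cover a brighter probe such as that of Ccl21a. With 1 array per group no spread between animals exists for any of these steps. More cells of a type and more RNA per cell cannot be told apart in whole muscle.

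**Figure D3:**
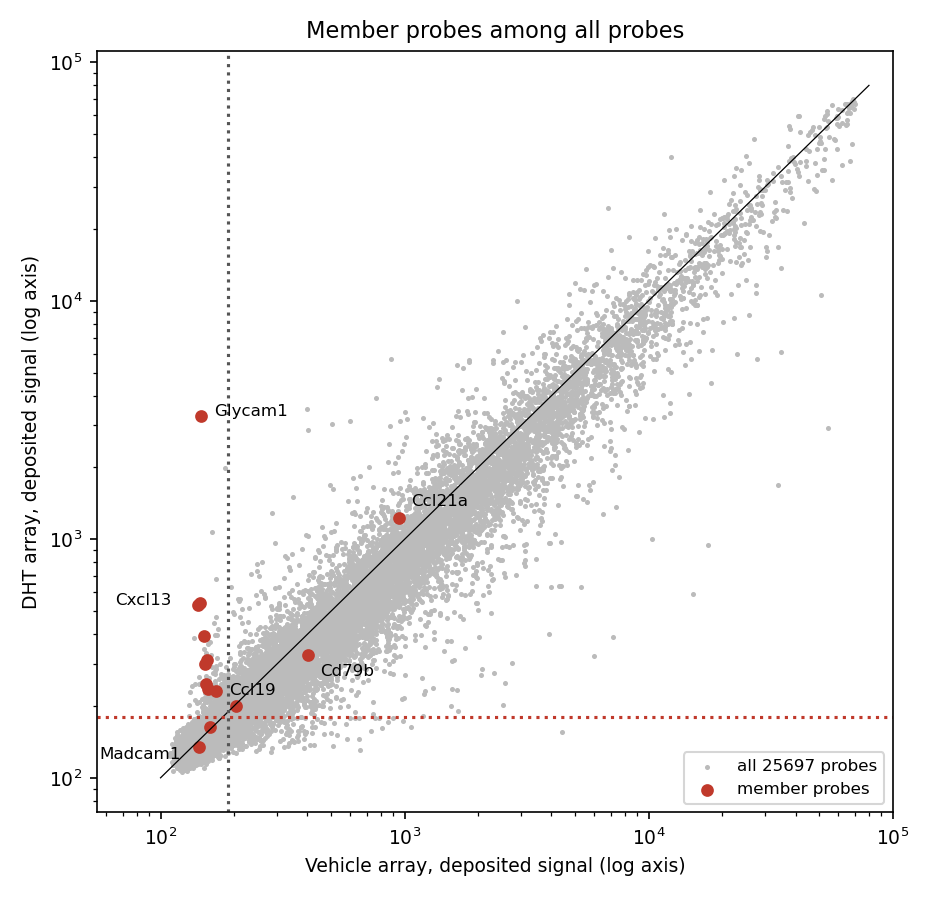
Deposited signals of all 25697 probes on the vehicle array (horizontal) and the DHT array (vertical), both log axes, with the member probes in red, the line of equal signal, and dotted lines at the lowest detected signal of each array. The Glycam1 probe, at 147 and 3277, is the highest named probe left of the vertical dotted line, and Cd79b lies by the line of equal signal.

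Among the 332 genes detected on the DHT array alone, ranked by uncorrected difference, Glycam1 was first, Cd209b the fifth, Cxcl13 the sixth and Cd8b1 number 17. Cd3d was number 30, Cd3g number 36 and Ccl19 number 57. The genes of that class that were no members and differed most were Cyp2e1, a cytochrome of liver and fat (12.2-fold uncorrected), Tmem87a (7.43-fold), the glutathione transferase Gsta3 (4.56-fold), Angptl8, a hormone-like protein of fat and liver (3.08-fold), and the urinary protein Mup2 (2.99-fold). They were followed by Cyp2f2 (2.73-fold), the potassium channel subunit Kcnf1 (2.63-fold), Epop (2.60-fold), periplakin, Ppl (2.55-fold), and Gnmt (2.54-fold), a methyltransferase.

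Other genes of the same cells were read from lists written with results of these data known. Of 27 further T cell genes on the array, 9 were detected. Of these 4 were at least 1.5-fold higher corrected, and 2 uncorrected. The 4 were the adaptor Lat, the costimulatory receptor Cd27, Cd6 and the T cell factor Bcl11b. The last 2 were outside the rule for naming and are given to complete the count, and without correction Lat and Cd27 passed. By their bounds Cd6 and Bcl11b were each at least 1.23-fold higher corrected, or at least 1.07-fold uncorrected. Cd6 rests on 1 of its 4 probes, and its other probes were detected on neither array. Lat had signals of 151 and 217 and was at least 1.82-fold higher corrected, or at least 1.25-fold uncorrected. Cd27 had signals of 168 and 241 at 1 of its 3 probes and was at least 2.34-fold higher corrected, or at least 1.40-fold uncorrected, and its other probes were detected on neither array. The only gene at least 1.5-fold lower was Thy1, a surface protein that fibroblasts and nerves also carry, with signals of 4380 and 972. Cd247, another chain of the T cell receptor complex, was detected on the vehicle array alone, at 1 of its 3 probes. That probe had signals of 201 and 169 and was at least 1.11-fold lower corrected, or at least 1.04-fold uncorrected.

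The remaining 18 T cell genes, defining ones among them, were detected on neither array. Cd3e, the epsilon chain of the CD3 complex, had signals of 150 and 178 with detection p of 0.351 and 0.014. Cd8a had signals of 117 and 124, Cd4 133 and 143, and the common leukocyte gene Ptprc, by its brighter probe, 168 and 150. The list median without the members was 0.48 corrected and 0.26 uncorrected, with summed signals of 14969 after vehicle and 11092 after DHT, most of it from Thy1 and Satb1.

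B cell genes went both ways on the corrected scale. Of 20 besides Cd79b, 9 were detected, 4 at least 1.5-fold higher and 4 lower corrected, with a median of 0.51 and summed signals of 2239 and 1984. Without background correction the counts were 0 and 1 and the median 0.24. The IgM receptor Fcmr was higher, with signals of 212 and 281 (2.31-fold corrected, 1.48-fold uncorrected). The B cell coactivator Pou2af1, with signals of 320 and 182, was 2.85-fold lower corrected and 1.59-fold uncorrected. Cd79a, the partner chain of Cd79b, had signals of 248 and 179 and was at least 1.82-fold lower corrected, or at least 1.26-fold uncorrected. The B cell surface gene Ms4a1 was detected on neither array, with 139 and 154. Genes of lymphocyte precursors had 4 of 9 detected, 3 of them lower corrected, 2 uncorrected, and 0 higher on either scale, among them the surrogate light chain gene Vpreb3 with signals of 347 and 192.

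Venule genes other than the members lay closer to 0 than Glycam1. Of 9 on the array 5 were detected, with 1 higher and 1 lower corrected, 0 of either uncorrected, a median of -0.27 corrected, and summed signals of 1619 and 1364. Gcnt1, which builds core branches of selectin ligands, was 1.70-fold higher corrected and 1.35-fold uncorrected. Ackr1, the atypical chemokine receptor of venules, had signals of 669 and 484, a corrected log2 difference of -0.27. The lower gene was B3gnt3, with signals of 241 and 177, at least 1.72-fold lower corrected, or at least 1.22-fold uncorrected. Of the enzymes for the L-selectin sugar on venules, Chst4 and Fut7 were detected on neither array. The sulphotransferase Chst4 had 154 and 130 and the fucosyltransferase Fut7 156 and 137. Another sulphotransferase, Chst2, was detected on both, with 217 and 201 and a corrected log2 difference of 0.05.

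Further genes of lymphoid stroma had 16 of 23 detected, 5 higher and 2 lower at 1.5-fold corrected and a median of 0.16, with summed signals of 26877 and 17179. Without background correction 1, Ccl21b, was higher and 2, Cxcl12 and Mfge8, were lower. The lymphocyte survival factors Il7, with signals of 160 and 199, and Tnfsf13b, with 212 and 260 at its brighter probe, were higher corrected, by at least 1.46-fold and by 2.03-fold. Uncorrected, Il7 was at least 1.14-fold and Tnfsf13b 1.37-fold higher. The other 3 higher genes were Ccl21b, Ccl21c and Tnfsf11, the last by at least 1.09-fold corrected. Probes of Ccl21b and Ccl21c can bind transcripts of the member Ccl21a, so their differences are not separate from that of Ccl21a. The broadly expressed chemokine Cxcl12 was lower at its brightest probe, with 3941 and 1801, while its other detected probes had corrected log2 differences of 0.09 and -0.01. Mfge8, a bridging protein made by follicular dendritic cells and many other cells, was lower at both of its probes, with signals of 13324 and 6603 at the brighter (log2 difference -0.83) and 3243 and 1658 at the dimmer (-0.76).

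Receptors and inducers of the member chemokines were largely dim. Of 37 genes of lymphotoxin signalling and lymphocyte homing 18 were detected, 4 higher and 3 lower corrected, 3 and 3 uncorrected, with a median of -0.06 and summed signals of 13596 and 10964. The chemokine receptors Ccr7, with signals of 144 and 154, and Cxcr5, with 171 and 162 at its brightest probe, and the lymphotoxin gene Ltb, with 168 and 163, were detected on neither array. The lymphotoxin receptor Ltbr had signals of 393 and 280 and a corrected log2 difference of -0.47, and the NF-kB gene Relb one of -0.07. The 4 higher genes were the chemokines Ccl8, Ccl5, Ccl11 and Ccl25, of which Ccl8 had signals of 175 and 299 and was at least 3.51-fold higher corrected, or at least 1.75-fold uncorrected. The 3 lower genes were Cxcl12, Cxcl9 and the receptor Cxcr4, with corrected log2 differences of -0.93, -1.10 and -0.83.

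Macrophage and dendritic cell genes besides Cd209b had 8 of 25 detected, 5 higher and 2 lower corrected, with a median of 0.81 and summed signals of 3120 and 2551. Without background correction 1, Timd4, was higher and 1, Fscn1, lower, with a median of 0.34. Fscn1, the actin-bundling protein of mature dendritic cells that other cells also make, had signals of 835 and 311 and was 3.09-fold lower corrected and 2.28-fold uncorrected, and the activation marker Cd83 had 364 and 244, a corrected log2 difference of -0.68. Cd209d, another lectin of the same family, had signals of 167 and 228, at least 2.05-fold higher corrected, or at least 1.31-fold uncorrected. Timd4, a receptor of resident macrophages for dying cells, had signals of 187 and 264, at least 2.80-fold higher corrected, or at least 1.54-fold uncorrected. The sinus macrophage gene Siglec1, with 152 and 149, and the scavenger receptor Marco, with 162 and 172, were detected on neither array.

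Lymphatic and sinus endothelium genes split. Of 15 besides Ccl21a 12 were detected, 2 higher and 5 lower corrected, with a median of -0.41 and summed signals of 8860 and 7498. Without background correction 2 were higher and 1, the connexin gene Gja4, lower, with a median of -0.24. Stab2, a hyaluronan receptor of sinusoidal endothelium in liver, spleen and lymph node, had signals of 247 and 737 and was 6.44-fold higher corrected and 3.44-fold uncorrected. Stab1, also on the list, went the other way, with 542 and 312, and was 1.79-fold lower corrected and 1.48-fold uncorrected. Lyve1, a hyaluronan receptor of lymphatic vessels and of some macrophages, had 811 and 1292, 2.10-fold and 1.91-fold higher. Prox1, the transcription factor that sets lymphatic identity, had 245 and 178 and was at least 1.78-fold lower corrected, or at least 1.24-fold uncorrected. The other genes lower corrected were Gja4, Itga9 and Reln, with log2 differences of -1.29, -0.88 and -0.71. Itga9 was detected on the vehicle array alone, with a bound of 1.09-fold, and Reln is named to complete the count.

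**Figure D4:**
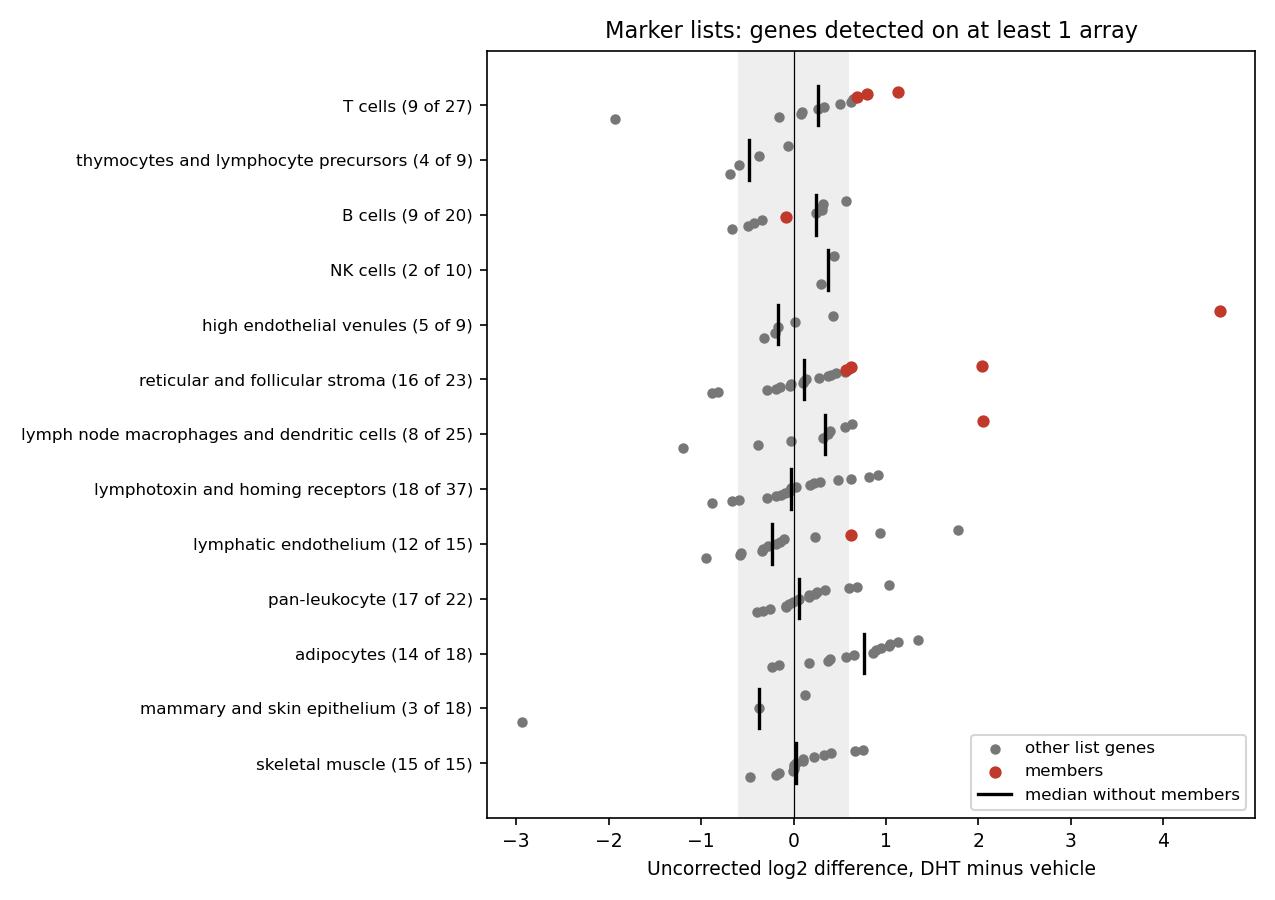
Uncorrected log2 difference, DHT minus vehicle, of each gene detected on at least 1 array, by marker list, with members in red, other genes in grey and the median without members as a black bar; labels give how many of the genes on the array, members left out, were detected. The adipocyte median lies at 0.76 and the venule median at -0.17, far from Glycam1 at 4.61. The skeletal muscle median lies at 0.03, with several of its genes near the top of the scale, where differences are compressed.

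Fat and leukocyte markers stood beside these values as follows. Of 18 adipocyte genes on the array 14 were detected, 10 were higher and 0 lower at 1.5-fold corrected, 8 and 0 uncorrected, and summed signals were 71574 and 81273. The fat hormone Adipoq had signals of 1818 and 3930 and was 2.67-fold higher corrected. The other 4 genes, Fabp4 (172 and 145), Retn, Cebpa and Pck1, were detected on neither array. Lpl, with 28795 and 23020, and Plin4, with 14689 and 10844, were lower by under 1.5-fold. Most of the summed signals came from these 2 and Pnpla2, with 12152 and 19897. Of 22 genes shared by most leukocytes 17 were detected, 4 higher and 0 lower corrected, 3 and 0 uncorrected, with a median of 0.16 and summed signals of 13010 and 11767. The higher ones were the lymphocyte surface gene Cd52, with signals of 525 and 894 (2.42-fold corrected, 2.04-fold uncorrected), Cytip, Lsp1 and Ptpn22. By its bound Ptpn22 was at least 1.32-fold higher corrected. Of 10 natural killer cell genes 2 were detected, Prf1 and Klrd1, at 1.52-fold and at least 1.30-fold higher corrected, and neither reached 1.5-fold uncorrected, at 1.36-fold and at least 1.09-fold. Of 18 mammary and skin epithelium genes 3 were detected, 0 higher and 2 lower corrected, 0 and 1 uncorrected. Ltf, the lactoferrin gene of milk, gland epithelium and neutrophil granules, had signals of 1653 and 190 and was 20.1-fold lower corrected and 7.64-fold uncorrected, while its other probe was detected on neither array. The keratin gene Krt8 had 223 and 161, and the milk genes Csn2, with 145 and 124, and Wap, with 128 and 137, were detected on neither array. Whether lymph node or fat tissue in the dissected sample takes part in the differences of the members was not tested, and with 1 array per group dissection and DHT cannot be told apart.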

How the data were processed

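The labels' protocols state Trizol extraction and biotin-labelled cRNA from 0.55 µg of total RNA. The deposited signal intensity is linear and, as its values show, neither normalized between arrays nor background-subtracted. The deposited detection p-value, per the file headers, stands beside each signal. The authors' deposited series values hold log2 values that differed by at most 0.000654 from quantile normalized log2 signals. The submitters' processing notes name GenomeStudio 2011.1, with its role not given in the sources used here.

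The neqc function of limma 3.58.1 (run in R 4.3.3) corrected the background from the detection p-values, added an offset of 16, quantile normalized the arrays and took log2. It was tested on simulated data in which only brighter probes were changed. Of the member probes only that of Ccl21a was as bright on the vehicle array, so the test does not cover the corrected folds of the others. Uncorrected values are quantile normalized log2 signals. Tables used pandas 2.3.3 and numpy 2.4.6 under Python 3.11.15, and plots matplotlib 3.10.9. Platform annotation, which can be old, named 23978 probes. The Entrez identifiers of 23962 probes matched GRCm38.p6 gene names, and 0 symbols changed. A gene took the value of its detected probe with the highest mean. With 1 array per group no test or p-value between conditions is given, and the number of arrays limits the precision.

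Members, 13 marker lists and motifs were chosen with earlier results of these data known. Every member was named with all its probes. Of each list, the 6 genes with the largest absolute differences and the genes that define the cell type could be named, and of other genes detected on the DHT array alone the 10 with the largest uncorrected difference.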

Additional observations from a re-analysis of the deposited data

How the results depend on the processing

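In the main setting 8 members were at least 1.5-fold higher, 0 were lower and 7 were detected on the DHT array alone. Among 7 other settings were no background correction, an offset of 50, median scaling and the authors' deposited values. The rest were detection p under 0.05, no filter on detection and the mean over detected probes. The deposited values lie within 0.000654 of the uncorrected ones, so they are no separate check. Under each setting 8 or 7 members were higher and 0 lower. Detection on the DHT array alone does not depend on normalization. Only detection p under 0.05 could change that count, and it stayed at 7. The count of higher members was 7 without background correction and in the deposited values, Ccl19 being the member that fell under 1.5-fold. Over all genes 1180 were at least 1.5-fold higher and 1394 lower with background correction, and 595 and 743 without it. The member count was also 7 without correction at detection p under 0.05, an alternative chosen after seeing the data. The log2 difference of Glycam1 ran from 4.61 to 7.07 over these settings, that of Cxcl13 from 2.04 to 4.18, of Ccl19 from 0.56 to 1.66 and of Cd79b from -0.13 to 0.07. No paired analysis was possible because each group has 1 array. Leaving out a replicate was not possible for the same reason. Signal over background limits what can be read: probes under about the lowest detected signals, 190 and 180, give no level, so undetected markers can be missed.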
